A study of Caenorhabditis elegans with 4 samples.

Results

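Closely spaced narrow binding regions of HAM-1 were examined in the deposited region lists of a ChIP-seq study of Caenorhabditis elegans. In the combined list of 5713 regions, 4956 were at least 50 bp and under 1000 bp wide and were kept. Of these, 725 were members of a cluster. Members were chosen by position alone: a kept region was a member when fewer than 1000 bp separated it from the nearest kept region on its chromosome. The other 4231 kept regions served as the comparison. The positions and widths are measured values that chose the members, so shares and spacings that follow from them are described without a test.

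All 4 libraries came from hermaphrodites of strain OP102 at the fed L1 stage, the first larval stage after feeding has begun. The strain carries the mutation unc-119(ed3) and the transgene wgIs102, which holds ham-1 fused to TY1, EGFP and FLAG tags together with unc-119(+). The libraries were 2 HAM-1 ChIP replicates, collected with an anti-GFP antibody, and 2 inputs, which have no list here. The transgene was introduced by particle bombardment, and the genotype lists no mutation of ham-1 itself, so the tagged protein adds to the worm's own. Whole larvae were used, so regions from different cells are merged into 1 list. Separate cultures for the replicates are not stated, and sequencing depth is unknown.

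HAM-1 is a winged-helix protein of the Storkhead family, needed for neuroblasts, the precursors of neurons, to divide asymmetrically. It is found at the cell cortex and in the nucleus, where a winged-helix domain can bind DNA. In C. elegans genes are compact and lie close together, and binding regions of transcription factors often fall at promoters. The regions below are given by position on the WormBase WS220 genome, because genes and sequences of that build were not used here.

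Most clusters were pairs. The 725 members formed 333 clusters, of which 285 held 2 regions, 39 held 3, 8 held 4 and 1 held 6. Pairs thus contained 570 members, or 78.6%. The clusters had a median length of 1634 bp from the first base of the first region to the last base of the last (interquartile range 1382 to 1969 bp), and the longest reached 5930 bp. Called regions filled a median of 60.0% of the length of a cluster. In total the clusters took up 581 kb, of which 349 kb lay inside members. Neighbouring clusters on a chromosome were a median of 151 kb apart, and 13 clusters had the next one within 5000 bp.

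Within clusters, 392 gaps separated neighbouring members. Their median was 588 bp (interquartile range 402 to 790 bp), and the midpoints of the flanking regions were a median of 1095 bp apart. No gap was shorter than 200 bp, in the combined list (smallest 200 bp), in replicate 1 (200 bp) or in replicate 2 (213 bp), over rows of every width. Members are therefore clusters of calls that lie at least 200 bp and under 1000 bp apart, and where this lower limit comes from is not given in the sources used here. For comparison, the nearest kept neighbour of the other kept regions lay a median of 6077 bp away (interquartile range 2822 to 12866 bp). Of the regions outside the kept widths, only those narrower than 50 bp fit in a gap under 1000 bp. Within clusters, 1 gap held such a region.

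Short gaps were more frequent than uniform placement gives at the same density. The comparison was computed in closed form. Within each 1 Mb bin the kept regions were taken as placed uniformly without overlap, which keeps the number of regions in every bin, and the share with a gap under 1000 bp on either side follows from the free length. Observed members made up 14.6% of kept regions (95% Wilson interval 13.7 to 15.6%), against 10.7% by that placement, or 725 against 531 regions, a ratio of 1.37. When the placement also forbade gaps under 200 bp, it gave 435 members and the ratio was 1.67. In bins of 100 kb, which follow the local density more closely, the placement gave 642 members and the ratio was 1.13. With both changes together the ratio was 1.37. The size of the excess depended on the bin size and on the minimum gap, and its direction did not over these 4 placements. Gaps to bin edges count as gaps in this form, which raises the placement value most where a bin holds few regions. The lower ratios in 100 kb bins therefore cannot be read as an effect of local density alone.

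No gap under 200 bp was found, against 56.1 by uniform placement in 1 Mb bins. From 200 bp up, gaps exceeded the placement in each class of the rule and also beyond its limit. There were 97 gaps of 200 to 399 bp, against 55.4. The gaps of 400 to 599 bp numbered 110, against 54.7. Those of 600 to 799 bp numbered 91, against 54.0, and those from 800 bp up to the limit 94, against 53.4. Beyond the limit, 351 gaps of 1000 to 1999 bp were found, against 257, and 315 gaps of 2000 to 2999 bp, against 242. The ratios ran from 1.68 to 2.01 between 200 bp and the limit and were 1.36 and 1.301 in the classes beyond it. The members nearest the limit were a region on chromosome IV at 2323033-2323436, which fell 1 bp short of it, and a pair on III at 6136155-6136321 and 6137320-6137853 (998 bp). The regions just outside it were pairs on IV at 8065043-8065547 and 8066551-8067040 (1003 bp), on II at 14801092-14801476 and 14802481-14802753 (1004 bp) and on III at 9151676-9152100 and 9153105-9153240 (1004 bp). In classes of 100 bp, the last below the limit held 40 gaps and the first above it 42.

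**Figure D1:**
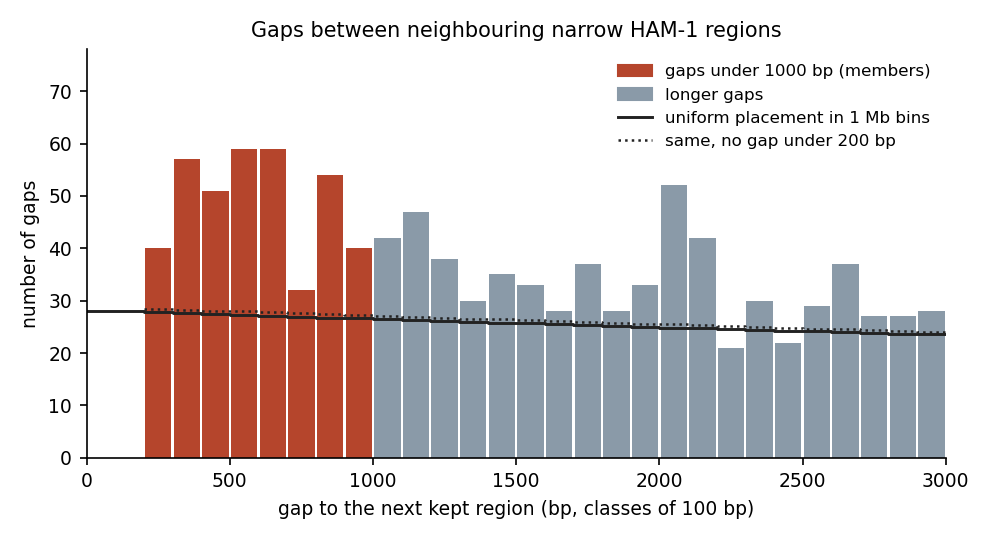
Number of gaps between neighbouring kept regions (y axis) by gap length in classes of 100 bp (x axis, bp). Red bars are gaps under 1000 bp, grey bars longer ones; the solid line is uniform placement within 1 Mb bins and the dotted line the same with gaps under 200 bp forbidden. No bar stands below 200 bp, and every red bar exceeds the lines, the lowest with 32 gaps at 700 to 799 bp.

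Clustering differed in degree among chromosomes. Chromosome III had the highest share of kept regions that were members, 169 of 917 or 18.4% (16.1 to 21.1%), and chromosome X the lowest, 69 of 780 or 8.85% (7.05 to 11.05%). The share was 16.1% on I (137 members), 16.0% on V (132), 15.4% on IV (135) and 11.7% on II (83). Uniform placement in 1 Mb bins ranks them differently. Chromosome V, whose regions are sparse, had 132 members against 75.1 by placement, a ratio of 1.76. The ratio was 1.49 on IV, 1.36 on I, 1.36 on III and 1.19 on II. On X, 69 members stood against 69.9, a ratio of 0.99, whereas the autosomes together had 656 against 461, a ratio of 1.42.

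The same rule was applied to each replicate's own list, where X again had the lowest ratio in replicate 1 and not in replicate 2. In replicate 1, 47 of 642 kept X regions were members (7.32%) and the ratio to placement was 0.99, against ratios of 1.16 on I to 1.93 on V. In replicate 2, 11 of 329 were members (3.34%), and the ratio was 0.86. There chromosome I, with 4 members, and II, with 12, also stood below 1, at 0.42 and 0.87, and V was again the highest at 2.197. With gaps under 200 bp forbidden, the ratio of X rose above 1 in the combined list, to 1.21, and it remained the lowest of the 6. In 100 kb bins, where gaps to bin edges raise the placement value, it was 0.79, still the lowest, and II fell to 0.96. These order statements are descriptions, since the positions chose the members.

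**Figure D2:**
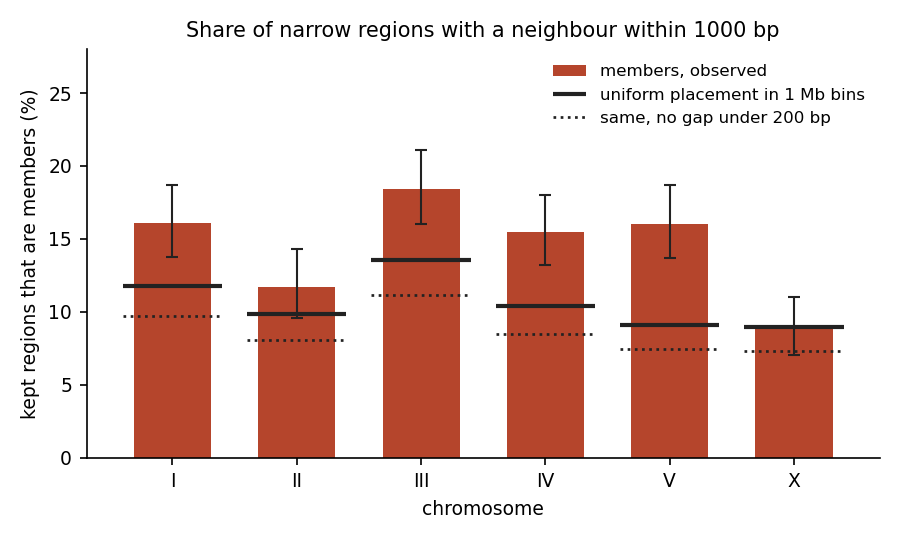
Share of kept regions that are members (y axis, %) on each chromosome (x axis). Bars are observed shares with 95% Wilson intervals; solid lines mark uniform placement in 1 Mb bins and dotted lines the same with gaps under 200 bp forbidden. The bar of V (16.0%) stands far above its solid line (9.12%), and the bar of X (8.85%) ends at its line (8.97%).

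Along the chromosomes, the share of members was higher in the centre on autosomes and in the outer parts on X. Each chromosome was divided into 3 equal parts over the span that calls cover. On the autosomes, 317 of 1783 kept regions of the central part were members, or 17.8% (16.1 to 19.6%), against 339 of 2393 or 14.2% (12.8 to 15.6%) in the outer parts. On X the order was turned, with 14 of 241 or 5.81% (3.49 to 9.51%) in the centre and 55 of 539 or 10.2% (7.92 to 13.0%) in the outer parts. Against uniform placement in 1 Mb bins, each assigned to a part by its midpoint, autosomal centres had a ratio of 1.34 and outer parts 1.51. The order of these ratios was the reverse of that of the shares, and the cause was not tested. The corresponding ratios on X were 0.71 and 1.09, so by this ratio the outer parts were higher on autosomes and on X alike. Over the 97 whole 1 Mb bins the number of members had a median of 6 and ranged from 0, in 7 bins, to 22, and 64 bins held more members than their placement value.

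The largest clusters showed how unevenly the regions of a cluster were called. The cluster with 6 regions lay on chromosome V at 10856963-10862892. Its members, from left to right, had combined q-values of 1.11e-08, 3.32e-18, 2.50e-08, 0.00222, 3.00e-06 and 0.00322. Replicate 1 held all 6, and its q-values at the outermost left region and at the strongest one were 4.40e-05 and 2.01e-12. Replicate 2 held the 2 leftmost regions, with q-values of 0.000852 and 0.000162. The right-hand part of the cluster was thus called in replicate 1 and in the combined list.

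Of the 8 clusters with 4 regions, 4 lay on III, 2 on I, and 1 each on II and V. The strongest, on III at 7270899-7274023, had combined q-values of 4.41e-08, 7.84e-38, 4.08e-18 and 5.81e-06. Replicate 1 held its 4 regions, with q-values of 1.02e-05, 9.49e-25, 8.86e-12 and 0.000298. Replicate 2 held the first 3, with 0.002999, 9.48e-11 and 1.03e-06. Another cluster of 4 on III, at 7296015-7299709, was the weakest of the 8: its best q-value was 0.000115, replicate 1 held 1 of its regions and replicate 2 held none. The order of strength along the first cluster was the same in the 3 lists over the regions each held, whereas 3 of the 4 regions of the second were called in the combined list and in neither replicate.

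The other 6 clusters of 4 regions fell between these. On III at 8509647-8513201 replicate 1 held all 4 regions and replicate 2 none, and q-values ran from 4.07e-05 to 0.00578. On III at 9664459-9668684 replicate 1 joined the 2 middle regions, 207 bp apart, into 1 region of 1568 bp, and replicate 2 held the region of lowest q-value, at 9667687-9668684. On I, the cluster at 10403669-10407993 had 3 regions in replicate 1 and 1 in replicate 2, and that at 8983887-8987446 had 2 and none. On II at 12091974-12095440, 3 regions were in replicate 1 and none in replicate 2. On V at 12024346-12027340 the counts were 2 and none. The combined q-values of the weakest and the strongest region of a cluster differed 10.8-fold in the cluster on III at 7296015-7299709, and 142-fold or more in the other 8.

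**Figure D3:**
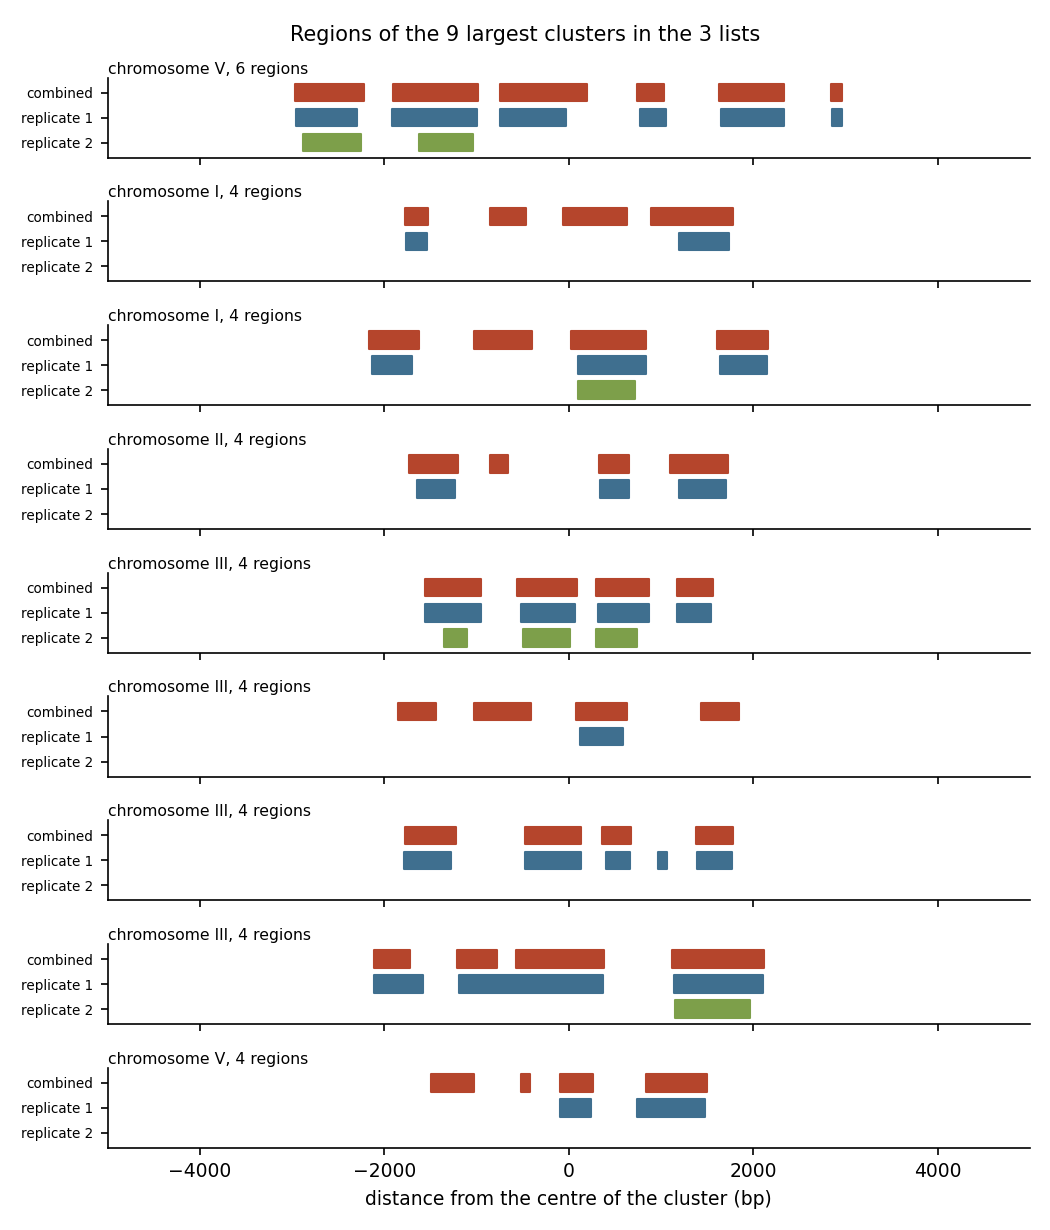
Regions of the 9 clusters with 4 or 6 members in the combined list, replicate 1 and replicate 2 (rows of each panel), drawn to scale by distance from the centre of the cluster (x axis, bp). Replicate 1 holds all regions of 4 of these clusters and replicate 2 holds 3 regions at most, in the strongest cluster of 4 regions on III.

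A smaller set of clusters was held in full by both replicates. In 31 of the 333 clusters, or 9.31%, every region overlapped a region of each replicate by 1 bp or more. The 8 with the lowest q-values were all pairs. The first lay on IV at 4748313-4748954 and 4749746-4750349, 791 bp apart, with combined q-values of 1.06e-10 and 1.36e-60. The q-values of its regions were 5.24e-07 and 5.91e-53 in replicate 1 and 0.000463 and 2.90e-40 in replicate 2. The second, also on IV at 15471343-15471809 and 15472321-15472773 (511 bp apart), joined regions that were both strong, with q-values of 8.17e-31 and 2.87e-57. The right-hand region had the lower q-value of each of these pairs in the 3 lists.

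The third of these clusters lay on III at 8903964-8905530 (gap 345 bp, q-values 3.94e-45 and 9.96e-23). The fourth, on V at 773251-775338, had a gap of 997 bp and q-values of 7.62e-36 and 1.47e-11. The fifth was on X at 17544253-17545837 (723 bp, 1.75e-35 and 1.17e-15), and the sixth on I at 8124221-8125708 (268 bp, 6.98e-32 and 1.95e-10). The seventh, on V at 16354684-16356493 (407 bp), had q-values of 8.59e-06 and 1.53e-31. The eighth, on III at 7498019-7498764 and 7499393-7499831 (628 bp apart), was nearly even. Its q-values were 2.11e-30 and 6.97e-29 in the combined list, 9.31e-20 and 1.17e-20 in replicate 1, and 1.80e-09 and 3.39e-09 in replicate 2. Which of its regions had the lower q-value differed between the replicates.

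The closest pairs were separated by barely more than the shortest gap. They lay on I at 9128762-9129624 (200 bp), on V at 9333021-9334608 (203 bp) and on III at 9455981-9457872 (205 bp). Replicate 1 also held each of these as 2 regions. Replicate 2 held neither region of the first and second, and 1 region of the pair on III, which had the lowest combined q-value of the 6 regions, 7.70e-17.

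Neighbours within a cluster differed in call strength by a median of 2.99 in −log10 q. This median over all member pairs was below that of neighbouring kept regions farther apart. There it was 3.30 for gaps of 1000 to 1999 bp, 4.46 for 2000 to 4999 bp, 4.84 for 5000 bp to under 10000 bp and 4.55 beyond. Among member pairs, however, it was 4.04 for gaps under 500 bp (148 pairs) and 2.48 from 500 bp up to the limit (244 pairs). The closest pairs thus differed more than neighbours 1000 to 1999 bp apart, and the difference did not rise steadily with the gap. Over the 392 pairs of neighbouring members, the stronger region had a median −log10 q of 7.15 and the weaker one 3.35, and in 196 pairs, or 50.0%, the q-values differed 1000-fold or more. The stronger region was the wider one in 266 pairs (67.9%), with a median width of 524 bp against 409 bp for the weaker. It was the first by position in 193 pairs (49.2%). The −log10 q of neighbours were only weakly related (Spearman's rho = 0.13 across 392 pairs that share a list and, in part, a region). In neighbours 1000 to 1999 bp apart rho was 0.18 (351 pairs), and in those 10000 bp or more apart 0.05 (2583 pairs).

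**Figure D4:**
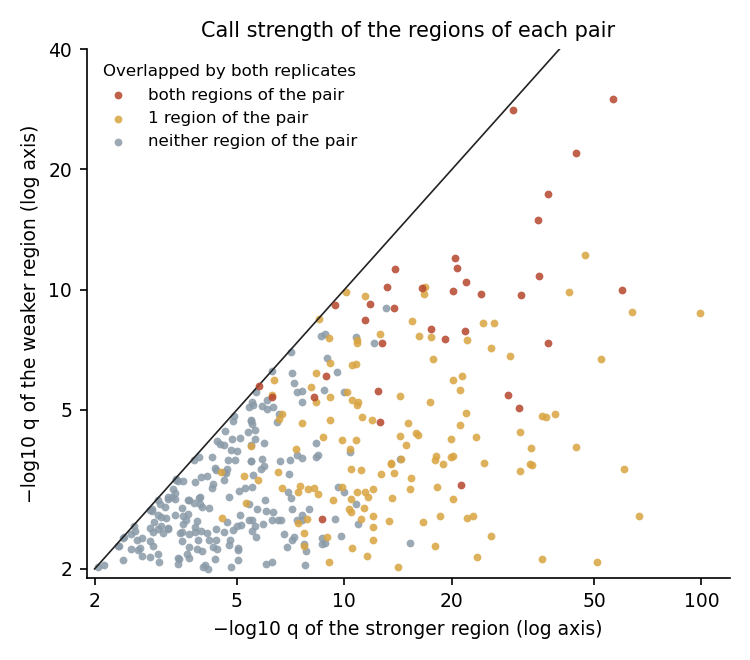
Call strength in each of the 392 pairs of neighbouring members: −log10 q of the stronger region (x axis) and of the weaker region (y axis), both on log axes, with the line of equality. Colour gives how many regions of the pair overlap both replicates: both regions in 35 pairs, 1 region in 136 and neither in 221.

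Replicate 1 held both regions of a pair more often than replicate 2 did. Replicate 1 held 231 of the 392 pairs as 2 separate regions, or 58.9% (54.0 to 63.7%), 1 region of the pair in 139, and neither in 20. It held 2 pairs as 1 region that spanned both. Replicate 2 held 38 pairs as 2 regions, or 9.69% (7.14 to 13.0%), 1 of the pair in 137 and neither in 217. No pair was spanned by 1 region of replicate 2, where a count of 0 allows a share of up to 0.765% (3 counts of the total). Both replicates resolved the same 35 pairs into 2 regions, or 8.93% (6.49 to 12.2%). Both regions overlapped both replicates in 10.3% of neighbouring kept regions 1000 to 1999 bp apart, in 11.5% of those 2000 to 4999 bp apart and in 13.6% of those 10000 bp or more apart, and these shares were not tested against each other. Of the stronger regions of the pairs, 165 overlapped both replicates (42.1%), against 41 of the weaker ones (10.5%), and in 6 pairs only the weaker region did. The combined q-value decided which region was the stronger. Support went with that q-value among other kept regions too. Whether the q-values alone give this difference was not tested. The count of 35 would be 38 by replicate 2 alone and 231 by replicate 1 alone, the longer list.

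Members were less often found in both replicates than other kept regions. Of the members, 199 of 725 or 27.4% (24.3 to 30.8%) overlapped both, against 1515 of 4231 or 35.8% (34.4 to 37.3%) of other kept regions and 34.6% of all kept regions. The odds ratio was 0.68 (0.57 to 0.81; two-sided Fisher's exact test, p = 1.07e-05, adjusted p = 3.22e-05 over 3 tests). Another 362 members (49.9%) overlapped replicate 1 only, 7 (0.97%) replicate 2 only and 157 (21.7%) neither, against 1861 (44.0%), 28 (0.66%) and 827 (19.5%) of other kept regions. Read in 1 replicate at a time, the difference passed the threshold in replicate 2 and not in replicate 1. In replicate 1, 561 members (77.4%) and 3376 other kept regions (79.8%) had a partner, beside 79.4% of all kept regions, and the odds ratio of 0.87 did not pass the threshold (Fisher's exact p = 0.149). In replicate 2, 28.4% of members and 36.5% of other kept regions had one (odds ratio 0.69, Fisher's exact p = 2.53e-05). The combined list and the replicate lists come from the same libraries, and the test treats regions as independent, which neighbours are not, and with 1 region taken from each cluster the odds ratio for both replicates was 0.69 (Fisher's exact p = 0.0035). The call ended with a gap limit of 500 bp (odds ratio 0.85) and with no width limit (0.89).

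The lower support went with weaker calls. The members had a median q-value of 1.80e-05 (interquartile range 2.44e-09 to 0.00085), against 5.23e-06 (1.20e-11 to 0.000615) for other kept regions. In −log10 q the median was 4.75 for members (n = 725) and 5.28 for other kept regions (n = 4231). The q-values belong to the same calls whose positions chose the members, so they are given as a description and without a test. Members were rarest among the strongest calls: they made up 10.1% and 9.48% of the first and second deciles of q, between 15.1% and 18.4% of the third to ninth, and 12.9% of the weakest. In the replicate 2 list, by its own rule, the median q-value was 5.65e-05 for members (n = 124) and 9.12e-05 for others (n = 1946), a difference in the other direction.

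Compared at like q-value in the combined list, the difference in support was smaller and did not pass the threshold. All 50 members and all 446 other kept regions of the strongest decile overlapped both replicates. In the third decile 73.7% of members and 74.9% of others did so, in the fourth 32.5% of members and 41.1% of others, and in the next 22.0% of members and 24.5% of others. The common odds ratio over deciles was 0.77 (0.58 to 1.03, n = 725 members and 4231 others over all deciles, two-sided Cochran-Mantel-Haenszel test, p = 0.094, adjusted p = 0.094), which does not show that the shares were alike. Deciles 1 and 10 did not enter this test, because all or none of their regions overlapped both replicates. It was 0.78 with deciles taken within each chromosome (0.58 to 1.05, p = 0.126 over the same n = 4956 regions). With a 50% reciprocal overlap required, it was 0.69 and passed the threshold (p = 0.0134, n = 4956).

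**Figure D5:**
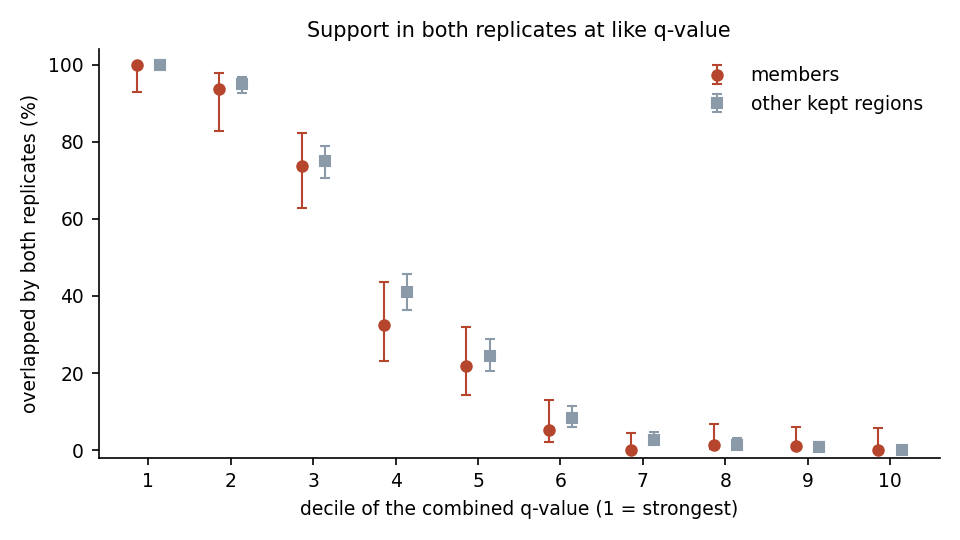
Share of regions overlapped by both replicates (y axis, %) in each decile of the combined q-value, from the strongest to the weakest (x axis). Circles are members and squares other kept regions, with 95% Wilson intervals. Both stand at 100% in decile 1, and no region of decile 10 overlaps both replicates, and their intervals overlap in every decile.

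The same comparison was made with the rule applied to 1 replicate and support read in the other, where the list that chose the members does not contain the list that tests them. By the rule in replicate 1, 530 of 4171 kept regions were members (12.7%), in 249 clusters, against 380.5 regions by uniform placement in 1 Mb bins. Replicate 2 held 194 of these members, or 36.6% (32.6 to 40.8%), against 1616 of 3641 other kept regions, or 44.4% (42.8 to 46.0%). The odds ratio was 0.72 (0.599 to 0.87; Fisher's exact p = 0.000727) and the common odds ratio within deciles of replicate 1 q was 0.88 (0.67 to 1.15, p = 0.381). By the rule in replicate 2, 124 of 2070 kept regions were members (5.99%), against 98.4 by placement. Replicate 1 held 116 of them, or 93.5% (87.8 to 96.7%), against 97.2% of the other 1946 (odds ratio 0.41, Fisher's exact p = 0.029). Within deciles of replicate 2 q the common odds ratio was 0.45 (0.20 to 0.99, n = 124 members and n = 1946 others, Cochran-Mantel-Haenszel p = 0.0788), near the unmatched value. The test carries a continuity correction and the interval does not, so the interval excludes 1 although the p did not pass the threshold. In 100 kb bins the 124 replicate 2 members stood against 139 by placement, and against 113 when gaps under 200 bp were also forbidden. Such bins hold few regions of this list, and gaps to bin edges raise the placement value there. The lower count is therefore not read as a deficit.

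Support varied with spacing and with cluster size, without a steady trend. Of members whose nearest gap was 200 to 399 bp, 35.7% (29.1 to 42.8%) overlapped both replicates, close to the 36.5% of kept regions with no neighbour within 10000 bp. The share was 24.8% at 400 to 599 bp, 22.9% at 600 to 799 bp and 26.2% from 800 bp up to the limit. For kept regions outside the rule it was 30.7% at 1000 to 1999 bp, 35.3% at 2000 to 4999 bp and 38.5% at 5000 bp to under 10000 bp. Members in clusters of 3 or more overlapped both replicates in 27 of 155 cases or 17.4% (12.3 to 24.2%), and members in pairs in 172 of 570 or 30.2% (26.6 to 34.1%). These differences among members were not tested.

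By chromosome, fewer members than other kept regions overlapped both replicates on 5 of 6. On I, 17.5% of members and 26.1% of other kept regions did so. The share was 22.9% of members and 38.1% of others on II, and 24.9% of members and 37.8% of others on III. On IV it was 35.6% of members and 44.2% of others, and on X 29.0% of members and 34.3% of others. On V it was 34.8% of members and 34.1% of others. Chromosome I had the lowest share in both sets. The differences between chromosomes were not tested.

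Members were somewhat wider than other kept regions, with a median of 461 bp in members (interquartile range 342 to 612 bp) and 416 bp in others (320 to 542 bp). The order was the same among regions in both replicates (members 579 bp, others 501 bp), in replicate 1 only (members 421 bp, others 378 bp) and in neither (members 393 bp, others 328 bp). Width limits were part of the rule, and these values are given without a test. Broad regions seldom lay beside members: 19 members (2.62%, 1.68 to 4.06%) and 143 other kept regions (3.38%, 2.88 to 3.97%) were within 1000 bp of a region of 1000 bp or wider. These 143 are close neighbours of a called region that the rule, which counts kept regions only, does not include.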

How the data were processed

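The authors deposited a q-value for each binding region. Regions were called with PeakSeq on WormBase WS220, per the file headers and source column, in 1 list for each ChIP replicate and 1 combined list. No source used here names the aligner, the caller's settings, how the combined list was made or what the inputs served for. Comment lines record that positions were moved from an earlier build and that the structure of some regions changed then, among them 1 member. The lists hold no read counts, so depth is unknown, and q-values were used only within a list. Larvae were reared at 20 °C and crosslinked in 2% formaldehyde, per the labels' protocols.

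Rows 50 to 999 bp wide were kept and sorted, and members were those with a gap under 1000 bp to the nearest kept row. Overlap with a replicate meant 1 bp or more. Uniform placement was computed in closed form per 1 Mb bin (region midpoints), with gaps to bin edges counted as gaps. Support in both replicates was compared with Fisher's exact test and, within deciles of q, with the Cochran-Mantel-Haenszel test, and q-values with the Mann-Whitney U test, all two-sided, with Benjamini-Hochberg adjustment over these 3. Deciles in which all or no regions had support did not enter the Cochran-Mantel-Haenszel test. The p for q-values is not printed, because the list that holds them chose the members, and p-values of other settings are unadjusted. The tests and 95% Wilson intervals treat regions as independent, which neighbours are not, and cover counting error only. P-values reflect these libraries, whose replicates may be technical. Clusters were named by a rule: those with the most regions, the 8 of lowest q-value held in full by both replicates, the 3 closest pairs, and regions next to the gap limit. The members and the comparisons were chosen with earlier results of these data known. Computations used Python 3.11.15, numpy 2.4.6, pandas 2.3.3, scipy 1.17.1, statsmodels 0.14.6 and matplotlib 3.10.9. The code was tested on simulated data, the placement formula in 1 Mb bins only.

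A gene table of a later build was not used, so no region is assigned to a gene and no sequence is shown. Alternatives covered the gap limit (500 and 2000 bp), the width limits, the overlap (50% reciprocal), the stronger 50% of regions, 1 region per cluster, deciles of width and bins of 100 kb. A minimum gap of 200 bp, the rule within each replicate, single-replicate values for q, pairs and matched support, deciles crossed with chromosome and leaving out a chromosome were added after seeing the data.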

Additional observations from a re-analysis of the deposited data

How the results depend on the processing

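Of 40 recomputed values, 24 were counted as unchanged and 1 reversed. For support and q-values, unchanged meant the same direction and the same side of the threshold. For q-values this rested on the Mann-Whitney p that is not printed, so those values are a description only. For shares it meant the interval of the main value, and for ratios and pair counts a set margin. The value that reversed was the difference in median −log10 q, -0.54 for members minus other kept regions. It was 0.22 in the replicate 2 list alone and -0.56 in the replicate 1 list alone. It was -0.24 at a gap limit of 500 bp and -2.05 among regions in both replicates. Leaving out each chromosome kept it between -0.38 and -0.72. The share of members, 14.6%, follows its limits: 5.69% at 500 bp, 26.98% at 2000 bp, 7.14% in the stronger 50% of regions and 19.97% with no width limit, and by replicate from 5.99% to 12.7%. Its ratio to uniform placement, 1.37, was 1.13 in 100 kb bins, where gaps to bin edges weigh more, and 1.67 with a minimum gap of 200 bp. The odds ratio of support in both replicates, 0.68, no longer passed the threshold at a gap limit of 500 bp (0.85) or with no width limit (0.89). Reading support in 1 replicate alone, with the same members, gave 0.69 to 0.87, and the higher value, in replicate 1, did not pass. With 1 region per cluster it was 0.69 and passed. Within deciles of q it did not pass (0.77), nor with support read in 1 replicate alone (0.81 to 0.92) or with 1 region per cluster (0.83). By the rule in replicate 1 (0.88) or in replicate 2 (0.45) it did not pass either. It passed with deciles of width in place of q (0.53) and with a 50% reciprocal overlap (0.69). The count of 35 pairs ranged from 38 to 231 by single replicate. For these dependences the cause was not tested. No paired analysis was possible because only the ChIP libraries have lists. Without read counts, absence from a replicate's list means that no call passed there and sets no bound on binding.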

Other observations

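These values were chosen after they were seen. Gaps of 2000 to 2099 bp and 2100 to 2199 bp between kept regions numbered 52 and 42, against 24.9 and 24.7 by uniform placement in 1 Mb bins, and the classes on either side, 1900 to 1999 bp and 2200 to 2299 bp, had 33 and 21.

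The 1 Mb bin with the most members was chromosome III from 9000001 to 10000000, with 22 of 64 kept regions, or 34.4%, against 7.92 by placement. On chromosome I from 13000001 to 14000000, 17 of 54 kept regions were members, or 31.5%, against 5.67.

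The members of lowest q-value are given here with their neighbours. They were chosen for their low q-values, so weaker neighbours follow from the choice. The lowest q-value of any member, 1.71e-99, was that of a region on X at 11093735-11094429, whose neighbour 956 bp away at 11095386-11095820 had 1.73e-09. The next was on X at 10377548-10378160 (q-value 1.14e-67), with a neighbour 540 bp away at 10378701-10379083 (q-value 0.00195). The third was on III at 8887105-8887545 (q-value 1.01e-64), with a neighbour 496 bp away at 8886276-8886608 (q-value 1.61e-09). Each of the strong regions overlapped both replicates, and each of these neighbours overlapped replicate 1 only. The neighbours with q-values of 1.73e-09 and 1.61e-09 were themselves below the first quartile of member q-values, 2.44e-09.

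Of the 157 members that overlapped neither replicate, the median q-value was 0.00216 and the median width 393 bp. In 15 clusters, or 4.50%, no region overlapped either replicate.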
